A study of Mus musculus with 4 samples.

Results

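The immunoglobulin genes are the antibody gene segments in the authors' deposited lists of changed genes for mouse uterus and ovary at embryonic day 3.5. They were taken as every listed gene whose transcript class starts with IG_, and the joining chain gene Jchain was added as a plasma cell reference. The uterus list holds 52 of them among 903 genes and the ovary list 13 among 854, which makes 57 different genes out of 1696 listed in either tissue. Of the 57, 8 stand in both lists, 15.4% of the uterus members and 61.5% of the ovary members. Over all listed genes, 61 stand in both, 6.76% of the uterus list and 7.14% of the ovary list. The study compared hypoxic with normoxic pregnant mice in each tissue, to ask what low oxygen does around implantation. The hypoxia groups are uterus and ovary of mice placed in low oxygen 72 hours after fertilization, labelled Hypoxic, and the normoxia groups are the same tissues of mice labelled Ctrl. All 4 groups were collected on the same embryonic day. The sources at hand give no strain, genotype, age, oxygen level or length of exposure. RNA of 3 samples was pooled into 1 library per group, so no spread between animals can be had and no difference below has a replicate check. Each deposited list gives a log2 fold change per gene, and only genes of at least 2 in absolute size are in it. Neither list names the numerator of its ratios. A positive value is taken to mean more RNA in hypoxia, an assumption under every direction given here.

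Antibodies are made by B cells and, in quantity, by plasma cells, the antibody-secreting cells they become. An antibody has heavy chains and light chains, and a light chain is of either the kappa or the lambda kind. Each chain is encoded by 1 variable segment, short segments joined to it in the B cell genome, and a constant segment. The short ones are joining segments and, in heavy chains, diversity segments. The heavy constant segment sets the class, such as IgA for Igha and IgG3 for Ighg3. Plasma cells of mucosal tissues, the uterus among them, make IgA that the joining chain holds together for transport across the epithelium. In RNA from a whole tissue, a change in the number of plasma cells and a change in the RNA of each cell cannot be told apart.

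How many reads stood behind a fold change matters here, because most listed variable segments rest on few. Dividing the folds by 1 factor per tissue, 0.995 for uterus and 0.952 for ovary, turned each of them into a quotient of whole numbers. These whole numbers are called terms and are read as read counts plus 1, an inference that no source states. A factor common to both terms is lost, so the counts can be larger. A gene is called beyond counting error when an exact two-sided binomial test of its reads passed 0.05 after Bonferroni correction over 55536 annotated genes. That test compares 2 libraries and not the conditions. Intervals are exact Clopper-Pearson intervals of 95% for the fold, and cover counting error only. In the uterus list 12.5% of all genes were beyond counting error and in the ovary list 8.31%. The smaller term was 1, read as 0 reads, for 66.9% of the uterus list and 72.7% of the ovary list.

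The 3′ ends of the listed variable segments share a short pattern of letters. The last 60 coding bases of the 9 uterus variable segments beyond counting error, from the GENCODE M21 transcripts of GRCm38, carry in capitals the letters that fit TANTNNTGN. There the first codon is for tyrosine. The last is for the cysteine that ends the fixed framework a variable segment gives to an antibody variable domain. What follows it starts the most variable loop of the domain, and heavy segments stop a few bases later, the rest of that loop being added by joining.
Ighv3-6: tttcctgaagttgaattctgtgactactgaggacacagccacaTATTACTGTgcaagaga
Ighv5-17: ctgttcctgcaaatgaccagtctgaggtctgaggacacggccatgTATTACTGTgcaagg
Igkv1-110: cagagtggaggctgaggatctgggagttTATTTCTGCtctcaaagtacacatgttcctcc
Igkv10-96: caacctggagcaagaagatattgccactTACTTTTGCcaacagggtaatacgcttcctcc
Igkv4-57: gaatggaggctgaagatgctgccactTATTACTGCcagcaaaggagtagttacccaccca
Igkv4-59: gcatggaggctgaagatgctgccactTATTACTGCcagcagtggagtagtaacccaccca
Igkv5-39: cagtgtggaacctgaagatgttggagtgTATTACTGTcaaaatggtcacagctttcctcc
Igkv6-23: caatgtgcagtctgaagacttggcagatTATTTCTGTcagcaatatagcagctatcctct
Iglv1: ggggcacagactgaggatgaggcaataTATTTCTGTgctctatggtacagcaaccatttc

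All lie on the minus strand except Igkv1-110, on the plus strand. Their last 60 bases are at chr12:114288152-114288211 for Ighv3-6, chr12:113859149-113859208 for Ighv5-17, chr6:68271208-68271267 for Igkv1-110 and chr6:68631963-68632022 for Igkv10-96. Those of Igkv4-57 are at chr6:69575975-69576034, of Igkv4-59 at chr6:69438218-69438277, of Igkv5-39 at chr6:69900424-69900483, of Igkv6-23 at chr6:70260409-70260468 and of Iglv1 at chr16:19085017-19085076. The letters were searched on the coding strand of the last 60 bases, with the last match taken. All 53 variable members hold them there, and so do 211 of the 222 annotated variable genes.

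Likeness over the whole coding sequence limits every value for a variable segment, since reads that fit 2 genes may have been split or dropped in the authors' counting. The 53 variable members were identical to their nearest annotated relative at a median of 95.7% of aligned bases, with a range of 75.0% to 99.1%. Of them, 49 shared at least 1 stretch of 50 bases with the transcript of another gene, and for 10 more than 50% of such stretches were shared. Ighv1-72 was the most alike, differing from Ighv1-62-3 at 3 of 351 bases. Igkv5-39, Igkv15-103, Igkv16-104 and Igkv19-93 shared no stretch of that length. Ighv1-72, Igkv15-103, Igkv16-104 and Igkv19-93 are named here after their values were seen. Among the constant genes, Igha, Igkc and Iglc1 shared none either, while Ighg3 shared 3.40% of its stretches.

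In the uterus, 50 of the 52 immunoglobulin genes were higher in hypoxia and 2 were lower. Over the whole uterus list 54.4% of genes were higher and 45.6% lower. The whole list is uneven by construction, since a ratio of 1 to 4 passed the threshold of the list and 4 to 1 did not. Without the genes at 1 to 4, 64.3% were higher, and no immunoglobulin gene was at 1 to 4. Beyond counting error were 12 of the 52, namely 11 higher and 1 lower, where 7.64% of the whole list was higher and 4.87% lower beyond it. The median log2 fold change of the 52 was 2.80, against 2.12 for all listed genes, and this gap includes the difference in the share of higher genes. Over higher genes alone it was 2.90 for immunoglobulin genes and 2.58 for the whole list. These genes are similar in sequence and are expressed by the same kinds of cell, so they are not independent of each other.

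Every chain of a class ends in the same constant segment, whichever variable segment it uses. Igha, the constant segment of IgA, had terms of 5487 in the hypoxia library and 1319 in the normoxia library. Its log2 fold change in the authors' deposited table was 2.05, just above the threshold, and counting error placed the fold between 3.90 and 4.40. Igkc, the kappa constant segment, had terms of 904 in hypoxia and 197 in normoxia, a log2 fold change of 2.19 in the authors' deposited table and an interval of 3.93 to 5.38. Jchain, the joining chain that links IgA units, had terms of 1092 in hypoxia and 251 in normoxia, and a fold between 3.78 and 5.0 by counting error. The intervals of Igha, Igkc and Jchain overlap, and differences among the 3 were not tested. Iglc1, a lambda constant segment, had terms of 42 in hypoxia and 5 in normoxia. Its log2 fold change of 3.06 in the authors' deposited table has an interval of 3.69 to 39.2 for the fold, which also overlaps those of the other constant segments. All 4 genes were beyond counting error.

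The list leaves out 7 of the 8 annotated heavy constant genes, which are those of IgM, IgD, IgE and the IgG classes, named Ighm, Ighd, Ighe, Ighg1, Ighg2b, Ighg2c and Ighg3. Of the lambda constant genes Iglc2, Iglc3 and Iglc4 are also outside the list. A gene outside the list had a log2 fold change under 2 in absolute size or was not counted, and these cannot be told apart. Whether Igha differs from the other classes was therefore not tested. On GRCm38, Igha lies on chromosome 12 from 113254830 to 113260236, Igkc on chromosome 6 from 70726435 to 70726966, Iglc1 on chromosome 16 from 19061618 to 19062071 and Jchain on chromosome 5.

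**Figure D1:**
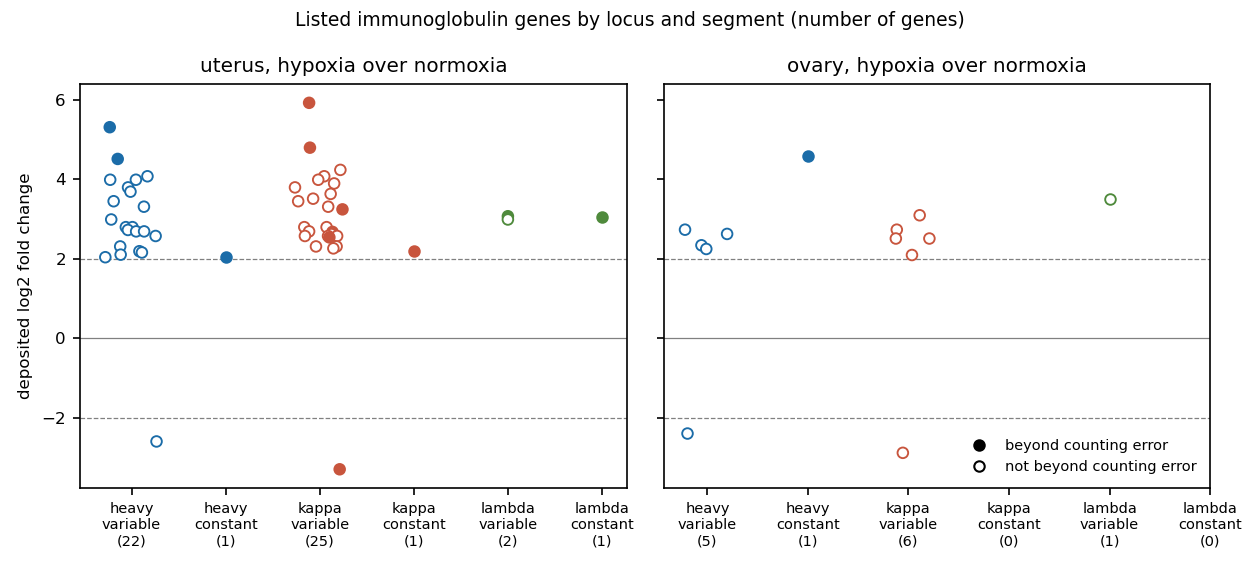
Deposited log2 fold change (vertical axis, hypoxia over normoxia) of each listed immunoglobulin gene by locus and segment, uterus left and ovary right, with the number of genes in brackets. Each point is 1 gene, filled where it was beyond counting error, and dashed lines mark the list's threshold of 2. In the uterus 50 points lie above 2 and 2 below -2, and in the ovary 11 lie above and 2 below.

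Of the 22 heavy variable genes in the uterus list, 21 were higher and 1 lower, with a median log2 fold change of 2.80 and 2 genes beyond counting error. Ighv5-17 had terms of 40 in hypoxia and 1 in normoxia and a log2 fold change of 5.32 in the authors' deposited table. With 0 reads in normoxia by the reading used here, its fold has a counting interval from 10.03 upward with no upper bound. Ighv3-6 had terms of 23 in hypoxia and 1 in normoxia and a log2 fold change of 4.52 in the authors' deposited table, with an interval from 5.45 upward. Ighv3-6 was not beyond counting error when terms were read as counts. Both intervals lie wholly above that of Igha. The intervals of 19 heavy variable genes overlap that of Igha, and that of 1 lies below. The one below is Ighv1-4, the lower gene, with terms of 1 in hypoxia and 6 in normoxia and -2.59 in the authors' deposited table. Its interval for the fold reaches up to 1.09, and it was not beyond counting error. A listed higher gene had to pass a fold of about 4, and the interval of Igha starts at 3.90. The interval of such a gene could therefore lie above that of Igha but not below it. The share of all listed genes above Igha was not taken.

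By family, 17 of the 22 belong to Ighv1, the largest heavy family in this annotation, with 54 genes. Of the 17, 16 were higher, and their log2 fold changes in the authors' deposited table run from -2.59 to 3.99. Ighv10 had both of its 2 annotated genes listed, both higher. Ighv10-1 had terms of 13 in hypoxia and 3 in normoxia, and Ighv10-3 had 17 in hypoxia and 1 in normoxia. These 2 were named after their values were seen. Ighv14, Ighv3 and Ighv5 had 1 gene each, so that 5 of the 16 annotated heavy families are represented. The smaller term was 1 for 15 of the 22.

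Of the 25 kappa variable genes, 24 were higher and 1 lower, also with a median of 2.80, and 6 were beyond counting error. Igkv4-57 had the largest value of any gene in the uterus list, 5.93 in the authors' deposited table, from terms of 306 in hypoxia and 5 in normoxia. Its interval for the fold, 29.3 to 280.3, lies wholly above that of Igkc. Its hypoxia term makes up 37.9% of the summed hypoxia terms of the 25 kappa variable genes, a share that lost common factors could move. Of its stretches of 50 bases, 50.8% also occur in another gene's transcript. Its nearest relative Igkv4-55, at 94.9% identity, is listed at 3.90 in the authors' deposited table, with terms of 15 in hypoxia and 1 in normoxia. Igkv6-23 had terms of 28 in hypoxia and 1 in normoxia and 4.80 in the authors' deposited table, with an interval from 6.80 upward.

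Igkv1-110 had terms of 105 in hypoxia and 11 in normoxia, 3.25 in the authors' deposited table, and an interval of 5.41 to 22.2 for the fold. Like Igkv4-57 and Igkv6-23, its interval lies wholly above that of Igkc, by a small margin. Igkv4-59 had terms of 58 in hypoxia and 9 in normoxia and 2.68 in the authors' deposited table. Igkv10-96 had terms of 41 in hypoxia and 7 in normoxia and 2.54 in the authors' deposited table. The intervals of these 2, 3.37 to 17.2 and 2.80 to 19.2, overlap that of Igkc, as do those of 21 kappa variable genes in all. A listed higher gene had to pass a fold of about 4, so variable genes with smaller folds are not in the list. The interval of Igkc starts at 3.93, so that of a listed higher gene could lie above it but not below. The share of all listed genes above Igkc was not taken either.

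Igkv5-39 went the other way. It had terms of 4 in hypoxia and 39 in normoxia and -3.29 in the authors' deposited table, with an interval of 0.0155 to 0.248 for the fold. It was the 1 lower immunoglobulin gene beyond counting error in the uterus. None of its 298 stretches of 50 bases occurs in another annotated transcript. The kappa members come from 13 of the 20 annotated families, with 4 listed genes each in Igkv4 and Igkv6 and all of them higher. Igkv4 is the largest kappa family, with 26 annotated genes, and Igkv6 has 9.

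The lambda locus of the mouse is small, with 3 variable genes in this annotation, and 2 of them are listed in the uterus. Iglv1 had terms of 127 in hypoxia and 15 in normoxia, 3.08 in the authors' deposited table, and an interval of 5.15 to 16.9 for the fold. That value lies beside the 3.06 of Iglc1, the constant segment with which Iglv1 is usually joined. Iglv2 had terms of 8 in hypoxia and 1 in normoxia and 2.99 in the authors' deposited table. It was not beyond counting error, though its interval starts at 1.43. Iglv1 and Iglv2 differ at 11 of 351 aligned coding bases, and 25.2% of the 50-base stretches of each occur in another transcript. The 100-base stretch with the most differences holds 4 of them, in capitals, at chr16:19085222-19085321 for Iglv1 and chr16:19260606-19260705 for Iglv2, both on the minus strand of GRCm38.
Iglv1: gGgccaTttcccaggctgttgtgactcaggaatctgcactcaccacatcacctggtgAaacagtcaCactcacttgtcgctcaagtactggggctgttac
Iglv2: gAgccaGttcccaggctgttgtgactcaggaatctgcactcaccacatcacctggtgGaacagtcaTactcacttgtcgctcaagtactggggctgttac

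**Figure D2:**
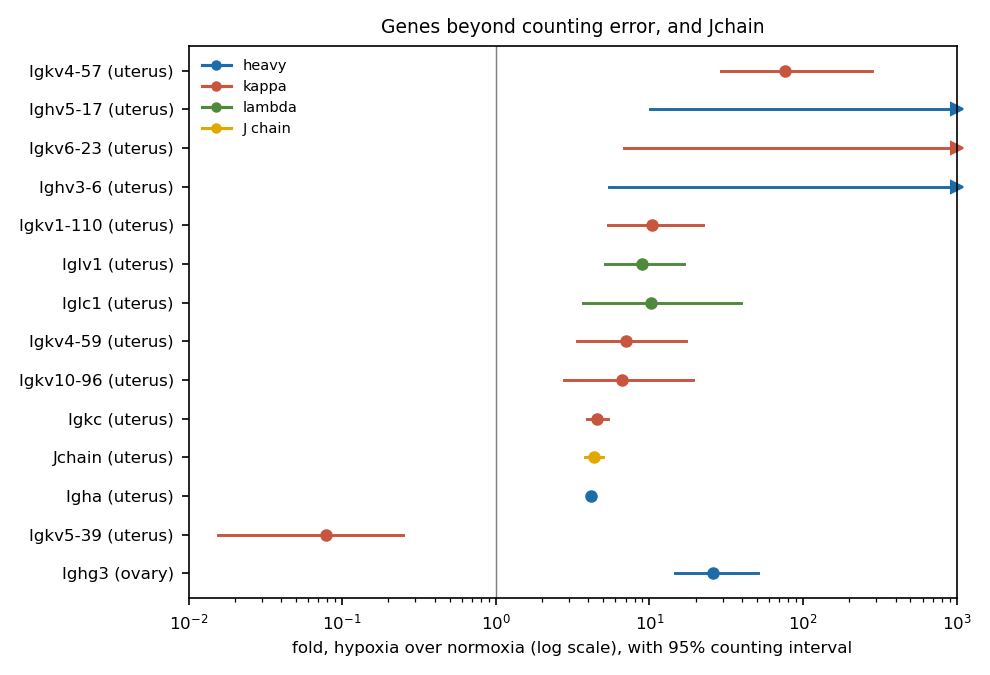
Fold, hypoxia over normoxia, on a log axis for the 13 immunoglobulin values beyond counting error and for Jchain, from reads (terms less 1) scaled by the tissue's factor. Points are folds, bars are 95% counting intervals, and arrows mark genes with 0 reads in normoxia, which have no upper bound. Igha, Igkc and Jchain have short overlapping bars near a fold of 4, Igkv4-57 lies highest among genes with a bound, and Igkv5-39 is below 1.

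Differences between the medians of heavy, kappa and lambda segments in the uterus were not tested. All of these medians rest on values that had to pass the threshold of 2. The median log2 fold change was 2.80 for 23 heavy genes, 2.80 for 26 kappa genes and 3.06 for 3 lambda genes. With 5 added to each read count, which shrinks ratios of few reads, the medians were 1.58, 1.88 and 2.35. Variable and constant segments differed in size of terms. The sum of both terms had a median of 15 over 49 variable genes, with a range of 6 to 311, and of 1101 over 3 constant genes, with a range of 47 to 6806. The median log2 fold change was 2.80 for the variable and 2.19 for the constant genes, and with 5 added it was 1.58 and 2.17. The order of variable and constant segments therefore turns with the handling of low counts.

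**Figure D3:**
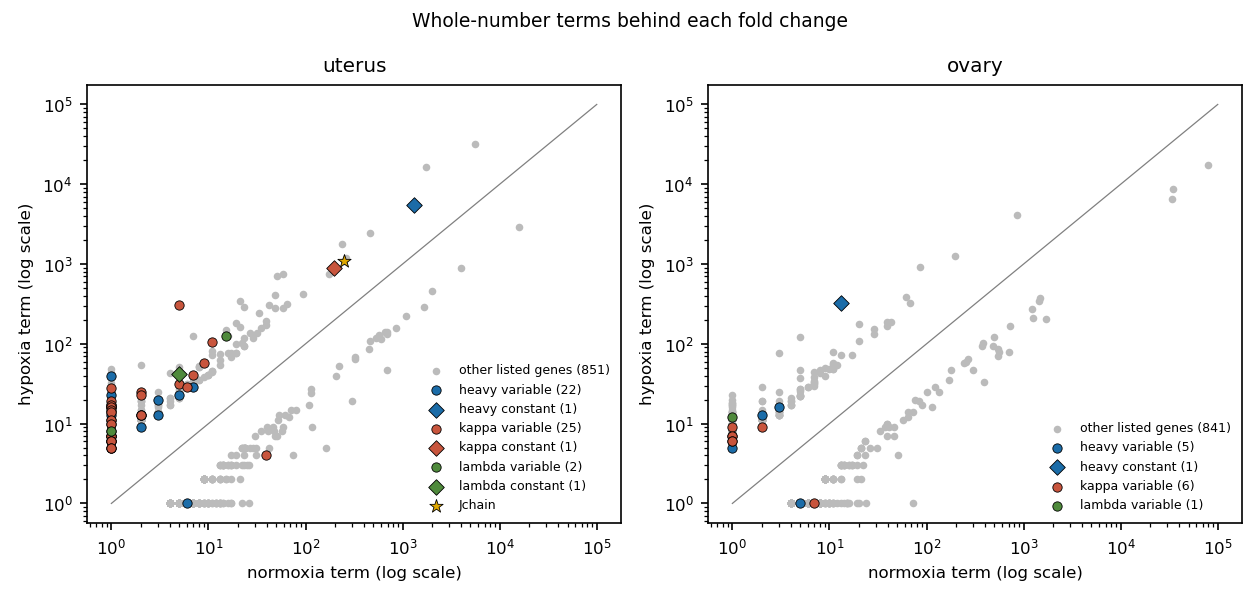
Hypoxia term (vertical, log axis) against normoxia term (horizontal, log axis) of every listed gene, uterus left and ovary right, with immunoglobulin genes coloured by locus, constant segments as diamonds, Jchain as a star and other listed genes in grey. The diagonal marks equal terms, and the empty band around it is the list's threshold. The constant segments Igha and Igkc lie with Jchain at high terms, while most variable segments lie in the column at a normoxia term of 1.

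In the ovary, 11 of 13 immunoglobulin genes were higher in hypoxia and 2 were lower, where 50.7% of all listed genes were higher, or 61.0% without those at 1 to 4. Lower were 49.3% of the whole list. Beyond counting error was 1 of the 13 (7.69%), a higher gene, where 8.31% of the whole ovary list was beyond it in either direction. By direction, 3.51% of the whole ovary list was higher beyond it and 4.80% lower. Ighg3, the constant segment of IgG3, had terms of 329 in hypoxia and 13 in normoxia and 4.59 in the authors' deposited table. Its interval for the fold was 14.7 to 50.9. It was the second largest value of the whole ovary list. Ighg3 lies on chromosome 12 from 113356224 to 113361232 on GRCm38, between Ighg1 and Ighd. Its coding sequence is 80.4% identical to its nearest relative, Ighg2c. No other constant gene is in the ovary list (1 of 13 annotated), and Jchain is not in it, so Igha, Igkc and Jchain had smaller values there or were not counted.

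The 12 ovary variable genes rested on few reads and none was beyond counting error by the exact test of either reading of the terms. At an uncorrected level, 8 of the 12 had an interval that leaves out 1, where 48.9% of all listed ovary genes did. The sum of both terms ran from 6 to 19. Among 5 heavy genes 4 were higher and 1 lower, with a median of 2.34. Ighv8-12 was the highest, at 2.74 in the authors' deposited table, from terms of 7 in hypoxia and 1 in normoxia. Among 6 kappa genes 5 were higher and 1 lower, with a median of 2.51. Igkv3-2 was the lower one, at -2.88 in the authors' deposited table, with terms of 1 in hypoxia and 7 in normoxia. Of the lambda locus, Iglv2 was listed. The other 3 ovary genes outside the uterus list were Ighg3, Igkv15-103 and Igkv8-27. The authors' deposited table gives 2.74 for Igkv15-103 and 2.51 for Igkv8-27, both named after their values were seen.

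The 8 genes listed in both tissues are variable segments, 4 heavy, 3 kappa and 1 lambda. Igkv8-30 had terms of 19 in hypoxia and 1 in normoxia in the uterus, and 9 in hypoxia and 1 in normoxia in the ovary. Iglv2 had 8 in hypoxia and 1 in normoxia in the uterus, and 12 in hypoxia and 1 in normoxia in the ovary. Both genes therefore had 0 reads in the normoxia library of either tissue, by the reading used here. Igkv6-14 had 6 in hypoxia and 1 in normoxia in the uterus, and 9 in hypoxia and 2 in normoxia in the ovary.

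The 4 shared heavy genes all belong to Ighv1. Ighv1-26 had terms of 10 in hypoxia and 1 in normoxia in the uterus, and 13 in hypoxia and 2 in normoxia in the ovary. Ighv1-39 had 9 in hypoxia and 2 in normoxia in the uterus, and 16 in hypoxia and 3 in normoxia in the ovary. Ighv1-52 had 16 in hypoxia and 1 in normoxia in the uterus, and 5 in hypoxia and 1 in normoxia in the ovary. Of these 6 shared genes, all higher in both tissues, 0 were beyond counting error in either. Agreement between the tissues was not tested, and 50 of the 52 uterus and 11 of the 13 ovary members were higher to begin with. For the 61 genes that stand in both lists, the share with the same direction was not taken. Ighv1-55 had 13 in hypoxia and 2 in normoxia in the uterus but 1 in hypoxia and 5 in normoxia in the ovary, and was not beyond counting error in either. Igkv5-39, lower in the uterus, had terms of 6 in hypoxia and 1 in normoxia in the ovary, with an interval that starts at 0.873 and so includes 1.

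The last 60 coding bases of the shared Ighv1 genes differ at few positions. They lie on the minus strand of GRCm38 at chr12:114788372-114788431 for Ighv1-26, chr12:114914599-114914658 for Ighv1-39, chr12:115145487-115145546 for Ighv1-52 and chr12:115208095-115208154 for Ighv1-55, with the letters that fit TANTNNTGN in capitals.
Ighv1-26: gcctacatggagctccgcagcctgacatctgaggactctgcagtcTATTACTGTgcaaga
Ighv1-39: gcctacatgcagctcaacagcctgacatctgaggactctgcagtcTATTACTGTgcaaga
Ighv1-52: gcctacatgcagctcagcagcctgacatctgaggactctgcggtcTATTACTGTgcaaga
Ighv1-55: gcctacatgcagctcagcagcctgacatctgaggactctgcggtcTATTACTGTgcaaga

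The ends of Ighv1-52 and Ighv1-55 are the same, and 7 annotated variable genes carry that end. A read lying wholly in this stretch fits all 7 genes. Ighv1-52 and Ighv1-55 had opposite signs in the ovary on 4 reads each. Over the whole coding sequence Ighv1-52 differs from its nearest relative Ighv1-61 at 5 of 351 bases and shares 67.2% of its 50-base stretches. That share was lower for the other shared Ighv1 genes, at 49.0% for Ighv1-26, 46.0% for Ighv1-55 and 7.28% for Ighv1-39.

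**Figure D4:**
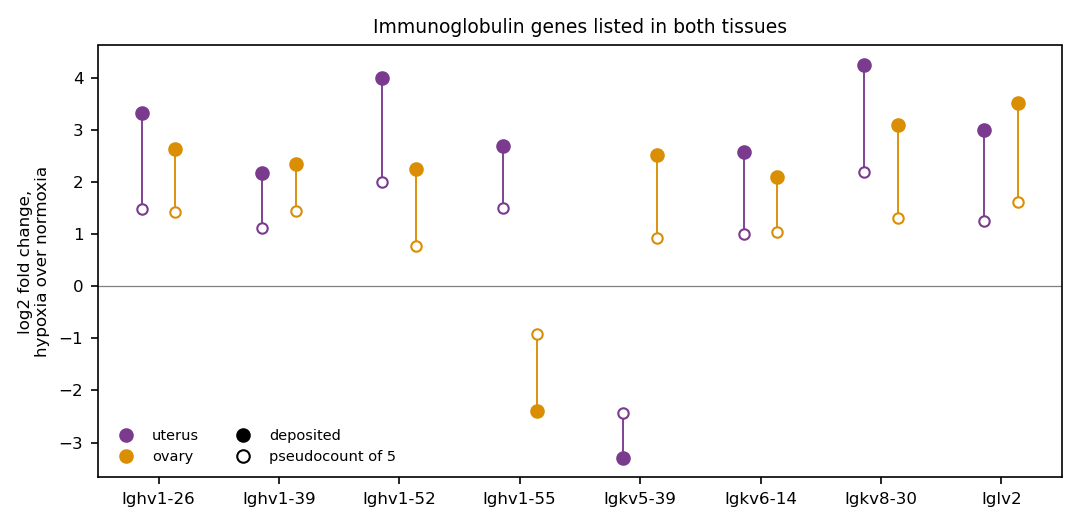
Log2 fold change (vertical axis, hypoxia over normoxia) of the 8 immunoglobulin genes listed in both tissues, uterus in purple and ovary in orange. Filled points are deposited values and open points the values with 5 added to each read count. In 6 genes both tissues are above 0, and Ighv1-55 and Igkv5-39 have opposite signs.

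In the uterus the listed variable genes were spread along the kappa locus, while few lay in the part of the heavy locus nearest Ighm. The 115 annotated heavy variable genes were numbered outward from Ighm and divided into 3 runs. The nearest 39 held 2 uterus members, the next 38 held 11 and the farthest 38 held 9. In the same order the runs held 0, 2 and 3 ovary members. The Ighv1 family, with 17 of the 22 heavy uterus members, starts at number 52, so position was not told apart from family. The 100 kappa variable genes, numbered from Igkc, held 9, 8 and 8 uterus members in runs of 34, 33 and 33, and 5, 0 and 1 ovary members. In the uterus list stood 19.1% of the annotated heavy, 25% of the kappa and 66.7% of the lambda variable genes, and in the ovary list 4.35%, 6% and 33.3%. Of all annotated genes 1.63% were in the uterus list and 1.54% in the ovary list, a background that includes many genes not read in these tissues. None of the 14 annotated joining segments, 19 diversity segments or 164 immunoglobulin pseudogenes was in either list (0 genes).

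**Figure D5:**
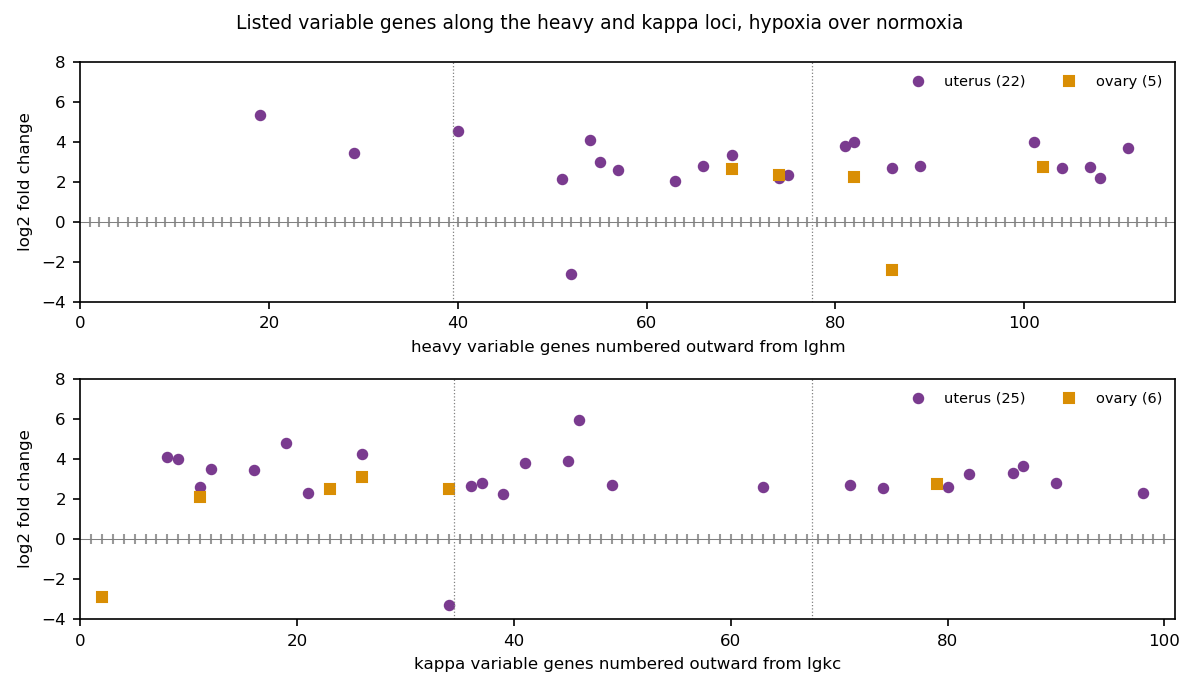
Log2 fold change (vertical axis, hypoxia over normoxia) of listed variable genes against their number outward from Ighm for 115 heavy genes (top) and from Igkc for 100 kappa genes (bottom). Grey ticks at 0 are all annotated variable genes, circles are the uterus, squares the ovary, and dotted lines divide the 3 runs. Uterus members occur along both loci, with 2 in the near heavy run.

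Other genes of the antibody system were mostly outside the lists, as were most annotated genes. Of all annotated genes 1.63% stood in the uterus list and 1.54% in the ovary list. At these shares a list of 16 genes is expected to hold few or 0, so such counts are not read as a result about them. Of 16 plasma cell genes, Jchain was listed in the uterus and 0 genes in the ovary. Of 16 B cell genes, such as Ms4a1 and Cd79a, and of 9 Fc receptor genes, 0 were listed in either tissue. Of 16 genes for the transport of IgA and the homing of its cells, Ccl28 was listed in the uterus, on terms of 1759 in hypoxia and 237 in normoxia. It encodes a mucosal chemokine that draws IgA-secreting cells, had 2.89 in the authors' deposited table, and its interval for the fold, 6.47 to 8.53, lies above that of Igha. Pigr, the receptor that carries IgA across the epithelium, was outside both lists.

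Markers of other cells gave few entries, again beside 1.63% and 1.54% of all annotated genes in the uterus and ovary lists. Of 11 T cell genes, Themis was listed in the uterus, at 2.08 in the authors' deposited table, from terms of 17 in hypoxia and 4 in normoxia, and was not beyond counting error. Of 226 annotated T cell receptor genes, 1 was listed in the uterus, Trbv5, and 2 in the ovary, Trbv3 and Trbj1-7, all on terms of 5 or less. Of 6 NK cell genes 0 were listed, and of 6 erythrocyte genes Slc4a1 was listed in the uterus at 2.32 in the authors' deposited table, with terms of 5 in hypoxia and 1 in normoxia. Of 6 uterine epithelial genes Ltf was listed in the uterus, on terms of 16403 in hypoxia and 1740 in normoxia. Of 6 granulosa and luteal genes Cyp19a1 was listed in the ovary, on terms of 207 in hypoxia and 1700 in normoxia. The part of such cells in the immunoglobulin values was not tested, and since the lists hold no levels the tissue labels could not be checked against their defining markers.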

How the data were processed

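Uterus and ovary RNA was sequenced in 4 groups of 1 pooled library each. Per the labels' protocols, polyadenylated RNA was captured and directional libraries were built. Build mm10, HISAT2 2.2.1, FastQC 0.73, DESeq2 2.11.40.7 and HTSeq 0.9.1 are named, with no role, in the submitters' processing notes. The options for counting reads, strand included, are not stated there. The authors deposited, per the file headers, a log2 fold change per gene for each tissue, limited to an absolute value of at least 2. Sequencing depth is unknown.

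Genes were joined by the symbol in the gene ID column, and all 52 uterus and 13 ovary members matched the GENCODE M21 annotation of GRCm38, the assembly of mm10. For each tissue the factor was taken that made every ratio a ratio of whole numbers, within a relative tolerance of 5e-14, with the smallest terms. Simple multiples of that factor also give whole numbers, but larger terms. The step was checked on simulated data made as counts plus 1. That check concerns the factor and the ratios, and cannot show that terms are read counts plus 1. Sequences were credited to GENCODE M21 transcripts, aligned with Biopython 1.88, on Python 3.11.15 with NumPy 2.4.6, pandas 2.3.3, SciPy 1.17.1 and matplotlib 3.10.9.

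The members and gene lists were chosen with earlier results of these data known. Named genes were the listed constant segments, Jchain, genes in both lists, variable segments beyond counting error, the largest positive and negative variable segment of each locus and tissue, and listed members of the gene lists. Alternatives were a pseudocount of 5, terms read as counts, an absolute log2 value of 3, an uncorrected interval, and leaving out genes at a term of 1 or at 1 to 4.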

Additional observations from a re-analysis of the deposited data

Results flagged for a closer look

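Ighv1-55 and Igkv5-39 had opposite signs in the 2 tissues, and that difference was not tested. For Ighv1-55 the authors' deposited tables give 2.69 in uterus and -2.39 in ovary. For Igkv5-39 they give -3.29 in uterus and 2.51 in ovary.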

How the results depend on the processing

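No paired analysis was possible because each group is 1 pooled library, and no library could be left out. At an absolute log2 value of 3 the count of higher immunoglobulin genes was 23 (uterus) and 3 (ovary), and without genes whose smaller term is 1 it was 20 and 4, against 50 and 11. The count beyond counting error was 11 (uterus, without Ighv3-6) and 1 (ovary) with terms read as counts, against 12 and 1, and 44 and 9 genes had an uncorrected interval without 1, where 54.2% and 48.9% of all listed genes did. The median log2 fold change, 2.80 for uterus and 2.51 for ovary members, was 1.65 and 1.07 with a pseudocount of 5, and 2.68 and 2.49 without genes whose smaller term is 1. With a pseudocount of 5, 17 of 52 uterus members and 1 of 13 ovary members, Ighg3, stayed at an absolute value of at least 2. The 66 values of members and Jchain kept their sign. Adding 5 to both counts cannot reverse a listed ratio, so that outcome was fixed in advance. Without genes at 1 to 4, 64.3% of the uterus list and 61.0% of the ovary list were higher. Few reads limit the variable segments, as they do the lists as a whole. Of the variable segments, 8 of 49 intervals in the uterus and 4 of 12 in the ovary included a ratio of 1. Over all listed genes, 414 of 903 in the uterus and 436 of 854 in the ovary did.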
